A study of Homo sapiens with 10 samples.

Results

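The fatty acid oxidation enzymes described here are 10 genes of the mitochondrial pathway: CPT1A and CPT2 of the carnitine shuttle, the acyl-CoA dehydrogenases ACADVL, ACADM and ACADS, the trifunctional protein genes HADHA and HADHB, the thiolase ACAA2, and ETFA and ETFDH, which take up the electrons. They were listed by symbol and matched to the Ensembl identifiers of the deposited counts by their GENCODE 29 names, and 10 of 10 were found among 63677 identifiers. All 10 passed the filter on low counts and were among the 16756 genes tested. RS4;11 is an established pro-B acute lymphoblastic leukemia line with a fusion of KMT2A and AFF1, and venetoclax (VEN) is a small molecule that inhibits the anti-apoptotic protein BCL-2. The study derived 5 VEN-insensitive lines (VENins) and 5 sensitive control lines (VENsens) in parallel from RS4;11 and sequenced poly(A) RNA of each line as single-end reads. The comparison asks which transcripts differ between the insensitive lines and their controls. VENins lines had been exposed to VEN in steps up to 100 nM over 8 months, were kept in VEN, and per the methods were washed free of it before analysis. VENsens lines had been exposed over the same 8 months to DMSO, the solvent, and were kept without VEN. All lines share a parent line and a culture medium, and each line gave 1 library, so the replicates are lines of a single leukemia. The counts on genes summed to between 20631907 and 28323643 in the VENsens libraries and to between 21145316 and 25394653 in the VENins libraries. Levels are given as CPM, the count of a gene scaled to the size of its library, with TMM normalization factors.

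Long-chain fatty acids enter the mitochondrial matrix as carnitine esters and are then shortened in rounds of dehydrogenation, hydration, a further dehydrogenation and thiolysis, each round releasing acetyl-CoA. The electrons of the first dehydrogenation pass through the electron transfer flavoprotein to the ubiquinone pool, and those of the later dehydrogenation leave as NADH. Leukemia cells can burn fatty acids beside glucose and glutamine, and in acute myeloid leukemia this pathway has been described as a fuel of cells that withstand VEN.

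Markers of the B lineage were read to check the labelled cell type. Of 15 B-lineage genes, 14 had a mean of at least 1 CPM, their summed level lay between 4103 and 4564 CPM over the 10 libraries, and IGLL1, the surrogate light chain gene, was the most abundant per kilobase of exon at 755 (VENsens) and 850 (VENins) CPM per kilobase, with VPREB1 close to it at 744 and 821. The exception was MS4A1, which encodes CD20, with means of 0.840 CPM (VENsens) and 0.919 CPM (VENins). None of 6 T-cell genes reached a mean of 1 CPM, with a summed level of 0.692 to 1.08 CPM, CD3E as the most abundant at 0.593 (VENsens) and 0.517 (VENins) CPM per kilobase and 2 genes at 0 in all libraries. Of 6 myeloid genes, CSF1R, the most abundant at 2.198 (VENsens) and 2.57 (VENins) CPM per kilobase, and CD33 reached it, and the list summed to between 9.45 and 14.5 CPM. None of 5 erythroid genes did, with sums of 0.0352 to 0.242 CPM, ALAS2 as the most abundant at 0.0684 (VENsens) and 0.0608 (VENins) CPM per kilobase and 3 genes at 0 throughout. Of 4 genes of liver and fat, APOA1, the most abundant at 0.692 (VENsens) and 0.973 (VENins) CPM per kilobase, reached a mean of 1 CPM. ADIPOQ was at 0 in all libraries, and the sums of this list lay between 1.02 and 2.04 CPM.

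The library of VENins line 5 stood apart from all others of its group. Differences between libraries were measured as chi-square over degrees of freedom, which is near 1 when counting error alone separates libraries. VENins line 5 gave values of 12.1 to 13.0 against the other VENins lines, which gave 4.00 to 8.81 among themselves. Of those lines, VENins line 4 was also apart, with 4.96 to 8.81 against lines 1, 2 and 3. These lines gave 4.00 to 4.32 among themselves. VENsens line 2 gave 5.18 to 8.92, and the other VENsens lines gave 1.85 to 5.53 among themselves, so these ranges overlapped. The count of enzymes with an adjusted p under 0.05 in edgeR's quasi-likelihood test was 0 with all libraries, 0 without line pair 5 and 0 without line pair 2. Without line pair 4 the count was 1, CPT1A. The median log2 fold change of the enzymes was 0.02 with all libraries and 0.02, 0.04 and 0.05 without line pairs 2, 4 and 5. A line pair is the VENsens and the VENins line of the same number, and it served as a block in the fit. Same-numbered lines did not deviate together from their group means, so counts over line pairs below depend on the numbering of the lines.

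The levels of the enzymes were ordered by CPM per kilobase of exon, with the exons of the GENCODE 29 basic transcripts as length. In VENsens lines HADHA was highest at 72.3 ± 1.89 CPM per kilobase (SD, n = 5), followed by ACADVL at 50.5 ± 0.896, ACADM at 49.8 ± 2.08 and ETFA at 47.7 ± 2.33. HADHB followed at 30.6 ± 1.81 CPM per kilobase, ACAA2 at 29.7 ± 1.49 and ACADS, the short-chain enzyme, at 16.3 ± 1.09. The lowest levels per kilobase were those of CPT2 at 11.7 ± 0.695, ETFDH at 6.12 ± 0.417 and CPT1A at 1.75 ± 0.165. The means spanned a 41.3-fold range, with the carnitine acyltransferases and ETFDH at the low end. VENins lines had the same order, from HADHA at 71.1 ± 2.59 to CPT1A at 1.26 ± 0.984 CPM per kilobase. In both groups the libraries of ACADVL and ACADM overlapped, as did those of ACADM and ETFA and those of HADHB and ACAA2, so that these neighbours did not differ beyond their spread. All other neighbours in the order were separate in both groups. The order depends in part on the exon length. With the exons of all GENCODE 29 transcripts as length, chosen after the data were seen, HADHA was still highest at 51.8 and CPT1A lowest at 1.54 CPM per kilobase in VENsens lines, a 33.6-fold range. On that length ACADM at 28.5 stood above ACADVL at 25.7, ACAA2 at 21.5 above HADHB at 15.95 and ETFDH at 4.47 above CPT2 at 3.57 CPM per kilobase, and in VENins lines ACAA2 also stood above ETFA.

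**Figure D1:**
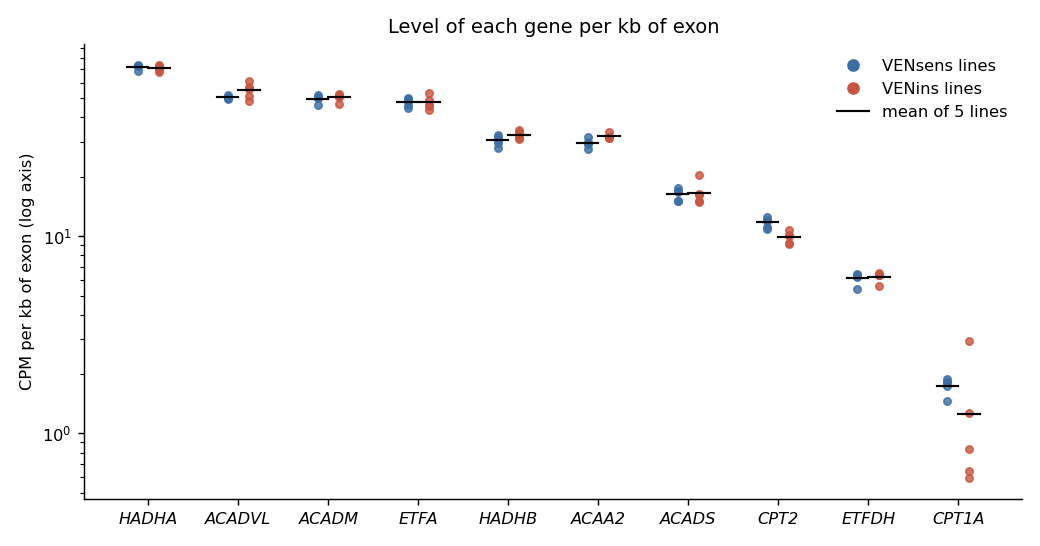
Level of each of the 10 enzymes in CPM per kilobase of exon (log axis), with 1 point per library and a line at the mean of the 5 lines, VENsens and VENins side by side. HADHA is at the top, CPT1A at the bottom, and the CPT1A points of the VENins lines are spread the most.

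The plot of levels per kilobase shows the points of most enzymes lying close together within each group, while those of CPT1A in VENins lines reach from 0.593 to 2.95 CPM per kilobase.

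Between VENins and VENsens lines, none of the 10 enzymes had an adjusted p under 0.05 in edgeR's quasi-likelihood test with the line number as a block, a call made for 33 of 16756 genes (0.197%). At an unadjusted p under 0.05 the same test picked 3 of 10, CPT1A and CPT2 with lower and ACAA2 with higher values in VENins lines, beside 16.2% of all tested genes. It picked 1 without line pair 1, beside 2820 of 16776 genes, and 1 without line pair 2, beside 1411 of 16770 genes. Without line pair 3, 4 or 5 it picked 2, 3 and 2. With no replicate block edgeR picked 2 of 10, beside 3047 of 16756 genes, and CPT1A was not among them. The 5 libraries of each group did not overlap for 1 of 10, CPT2, and for 4.66% of all tested genes. By the sign of the fitted log2 fold change 6 were higher and 4 lower in VENins lines, and of all tested genes 8558 of 16756 (51.1%) were higher. The median log2 fold change of the enzymes was 0.02 and that of all tested genes 0.0035, and the medians of the absolute values were 0.06 and 0.09. The carnitine acyltransferases CPT1A and CPT2 had the largest absolute log2 fold changes of the 10.

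Other fits made between 0 and 2 calls among the 10 enzymes. DESeq2 with the block called 0 of 10, beside 1.89% of the genes it gave an adjusted p. Without the block edgeR called 0 of 10, beside 0.889% of all tested genes. DESeq2 without the block called 1 of 10, CPT2, beside 5.51% of the genes it gave an adjusted p. After each library had been corrected for length and GC trends, edgeR called 1 of 10, again CPT2, beside 1.02%. Without a filter on low counts edgeR called 2 of 10, CPT1A and CPT2, beside 2.02% of 32884 genes. In that fit the prior degrees of freedom were estimated as infinite, so that a gene's own spread did not enter its test, while with the filter they were 10.8. Without line pair 4 edgeR called 1 of 10, CPT1A, beside 1.97%.

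**Figure D2:**
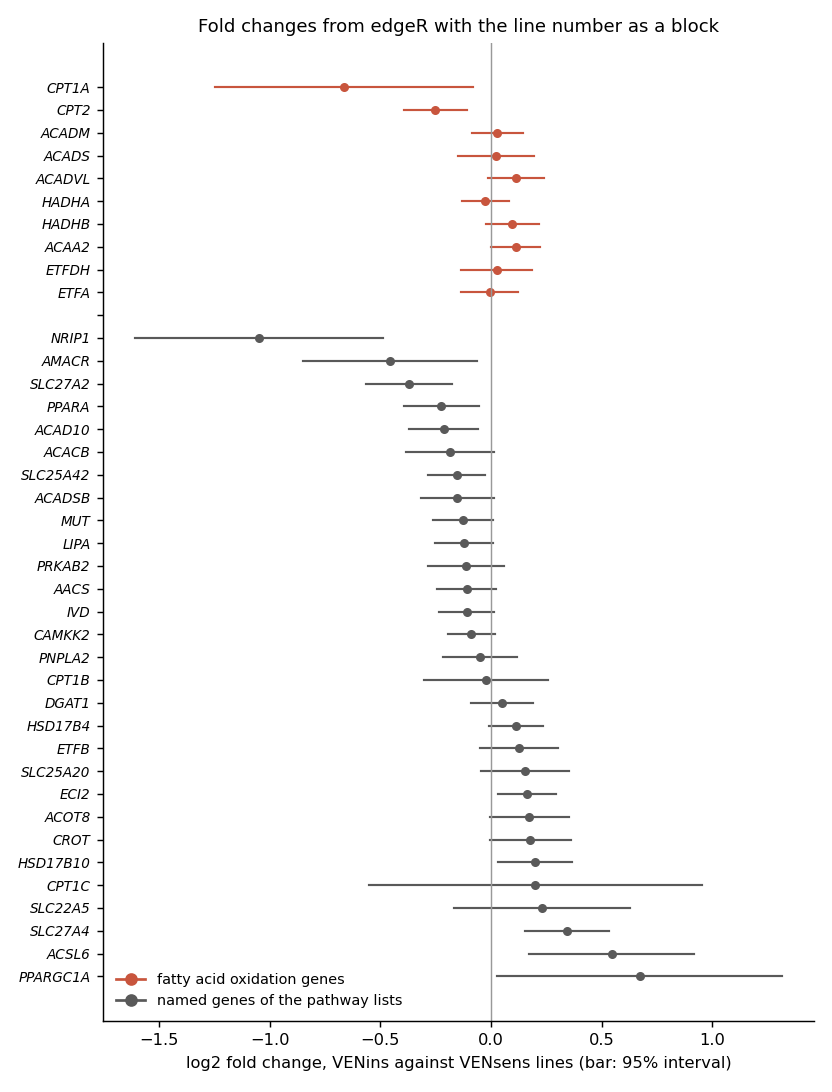
Fitted log2 fold change (VENins over VENsens, horizontal axis) with its 95% confidence interval for the 10 enzymes in red and the named genes of the pathway lists in grey. Among the enzymes CPT1A is lowest at -0.66 with the widest interval, CPT2 follows at -0.25, and the other 8 lie between -0.03 and 0.11.

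The plot of fold changes shows the intervals of CPT1A, CPT2 and ACAA2 on 1 side of 0 and those of the other enzymes across it. Among the pathway genes NRIP1, a corepressor, has the lowest value, with an interval about as wide as that of CPT1A.

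CPT1A and CPT2 work in sequence at the mitochondrial membranes. CPT1A, on the outer membrane, moves the acyl group of long-chain acyl-CoA to carnitine and is the step that malonyl-CoA inhibits, and CPT2, on the inner membrane, moves it back to CoA. The 250 bases before a RefSeq start of each gene are shown because these members had the lowest fold changes of the 10. Both are from RefSeq, build GRCh38.p14, CPT1A at chr11:68844278-68844527 on the minus strand and CPT2 at chr1:53196574-53196823 on the plus strand, written 5′ to 3′. Capitals mark GGGCGG, the letters of the GC box, and CCGGAAG, letters that ETS factors are known to bind, on either strand.
CPT1A: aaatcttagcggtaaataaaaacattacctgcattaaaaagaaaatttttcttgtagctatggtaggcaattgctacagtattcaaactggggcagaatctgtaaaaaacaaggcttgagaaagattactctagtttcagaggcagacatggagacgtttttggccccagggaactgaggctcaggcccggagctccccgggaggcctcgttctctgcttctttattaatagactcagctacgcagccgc
CPT2: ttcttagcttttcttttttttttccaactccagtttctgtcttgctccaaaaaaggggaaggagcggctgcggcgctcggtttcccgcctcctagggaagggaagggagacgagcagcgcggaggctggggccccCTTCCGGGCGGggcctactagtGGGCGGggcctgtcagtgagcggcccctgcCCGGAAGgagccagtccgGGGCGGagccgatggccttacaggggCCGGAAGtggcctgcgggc
The CPT2 window holds 3 matches of GGGCGG and 3 of CCGGAAG, and at the first stretch of capitals a match of each overlaps the other. The CPT1A window holds neither, and its GC content is 44.4%, against 65.2% for CPT2 and a median of 58% over all windows. GGGCGG is found in 42.6% of 35114 windows and CCGGAAG in 8.52%, where the windows counted run past the 250 bases shown, beyond the start. A match is a description of letters, not a site. By GENCODE 29 the outermost start of CPT2 lies before its window and that of CPT1A inside its window. The letters and GC content therefore describe the RefSeq starts taken, not every start of these genes.

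CPT1A (ENSG00000110090, chromosome 11) stood at 10.5, 10.6, 10.1, 8.50 and 10.9 CPM in VENsens lines 1 to 5 and at 3.43, 3.72, 7.32, 17.1 and 4.84 CPM in VENins lines 1 to 5. VENins lines 1, 2, 3 and 5 were below every VENsens line, and VENins line 4 was above every one of them, so the groups overlapped through that line. These values rest on 73 to 435 counts per library, and whether fewer cells of a line carried the transcript or each cell carried less of it cannot be told apart in bulk RNA. VENsens lines averaged 10.1 ± 0.956 CPM and VENins lines 7.28 ± 5.70 CPM (SD, n = 5). The fitted log2 fold change was -0.66 (SE 0.27, 95% confidence interval -1.25 to -0.08), lower in 4 of 5 line pairs, with an adjusted p of 0.251 in edgeR's quasi-likelihood test. Without line pair 4 it was -1.15 (SE 0.16), with an adjusted p of 0.000292 in the same edgeR test. With no replicate block it was -0.46 (SE 0.31), with an unadjusted p of 0.157 in edgeR's test. In DESeq2 without the block it was -0.47, with an unadjusted p of 0.286 in that test. Over all alternatives the fold change lay between -1.15 and -0.46 and the adjusted p of the edgeR and DESeq2 fits between 4.15e-07, from the fit without a filter on low counts, and 0.721, from the fit without line pair 2.

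**Figure D3:**
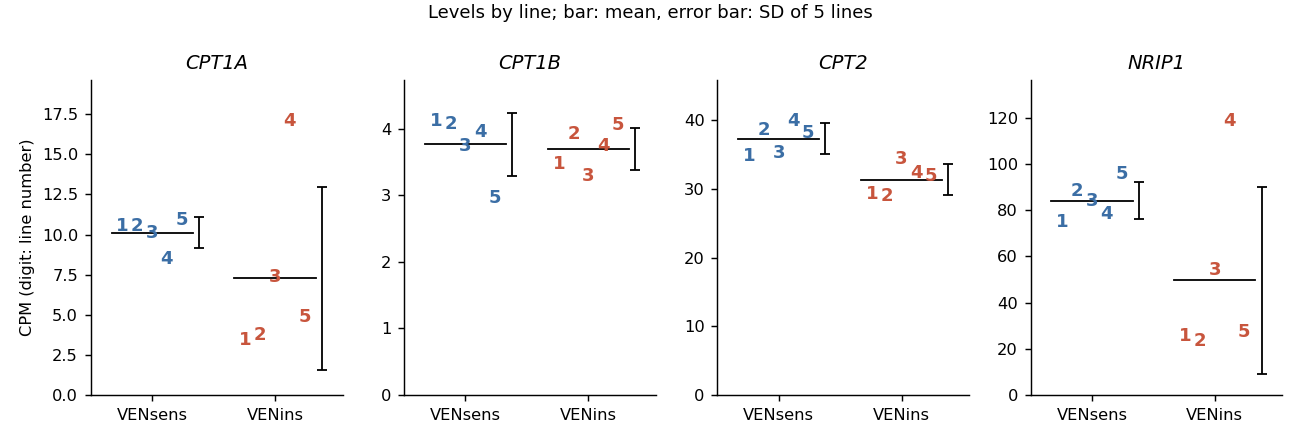
CPM of CPT1A, CPT1B, CPT2 and NRIP1 (vertical axes from 0) in the VENsens and VENins lines, each library drawn as its line number, with the mean as a bar and the SD of 5 lines as an error bar. CPT1A and NRIP1 are low in VENins lines 1, 2, 3 and 5 and highest in VENins line 4, CPT2 is lower in all VENins lines, and the CPT1B groups overlap.

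CPT2 (ENSG00000157184, chromosome 1) stood at 34.8, 38.6, 35.3, 39.9 and 38.1 CPM in VENsens lines 1 to 5 and at 29.3, 29.02, 34.3, 32.3 and 31.8 CPM in VENins lines 1 to 5. Each VENins line was below each VENsens line, and the closest values were those of VENins line 3 and VENsens line 1, as the plot of levels by line shows. VENsens lines averaged 37.3 ± 2.21 CPM and VENins lines 31.4 ± 2.22 CPM (SD, n = 5), from 624 to 1002 counts per library. The fitted log2 fold change was -0.25 (SE 0.07, 95% confidence interval -0.39 to -0.11). CPT2 was lower in 5 of 5 line pairs, which separate groups give under any numbering. Its adjusted p of 0.107 in edgeR's quasi-likelihood test was the smallest among the 10 enzymes. Under all alternatives the fold change lay between -0.31 and -0.21. The adjusted p was 0.0116 in DESeq2 without the block, 0.0472 in edgeR without a filter on low counts and 0.0482 in edgeR with length and GC trends taken out, within a range of 0.0116 to 0.540 over the alternatives.

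CPT1B and CPT1C are the other genes of the CPT1 family, known from muscle and from the brain, and SLC25A20 is the inner-membrane carrier that exchanges acylcarnitine for carnitine. CPT1B stood at 4.12, 4.07, 3.73, 3.94 and 2.95 CPM in VENsens lines 1 to 5 and at 3.48, 3.92, 3.30, 3.73 and 4.05 CPM in VENins lines 1 to 5. The groups overlapped, and the log2 fold change was -0.02 (SE 0.13), with an adjusted p of 0.957 in edgeR's test, and it ran from -0.14 to 0.03 when a line pair was left out. CPT1C lay between 0.163 and 0.541 CPM, from 4 to 14 counts per library, and its log2 fold change of 0.20 had an SE of 0.35 and an adjusted p of 0.834 in edgeR's test. It was 0.43 without line pair 2, 0.03 without line pair 4 and -0.06 without line pair 5. Per kilobase of exon, CPT1A made up 53.6%, 54.8%, 55.0%, 51.4% and 64.0% of the summed CPM of these 3 isoform genes in VENsens lines 1 to 5. In VENins lines 1 to 5 its share was 30.5%, 31.8%, 50.04%, 68.0% and 35.1%, so CPT1A exceeded CPT1B per kilobase in lines 3 and 4 and CPT1B exceeded CPT1A in lines 1, 2 and 5. With the exons of all transcripts as length the share was 56.6% to 68.8% in VENsens lines and 35.8%, 36.5%, 55.9%, 72.7% and 40.6% in VENins lines 1 to 5. SLC25A20 stood at 6.86, 7.27, 7.40, 7.15 and 7.38 CPM in VENsens lines and at 8.46, 7.81, 7.85, 8.53 and 7.49 CPM in VENins lines 1 to 5. Its groups did not overlap, VENins being higher, and its log2 fold change was 0.15 (SE 0.09), with an adjusted p of 0.440 in edgeR's test.

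The spread of CPT1A among VENins lines was among the largest of all genes and rests in part on line 4. The SD of its log2 CPM was 0.14 over the VENsens lines and 0.94 over the VENins lines. Of 14616 tested genes with a mean of at least 1 CPM, 4481 (30.7%) had a larger SD than CPT1A in VENsens lines and 24 (0.164%) in VENins lines. Without line pair 4, left out after the data were seen, the SD of CPT1A was 0.05 in VENsens and 0.48 in VENins lines, with 192 genes (1.31%) above it in VENins lines and 89.2% above it in VENsens lines. The median SD of these genes was 0.10 in VENsens and 0.12 in VENins lines. The other 9 enzymes had SDs of 0.03 to 0.10 in VENsens and of 0.04 to 0.18 in VENins lines. All were under the median gene in VENsens lines and all but ACADS and ACADVL under it in VENins lines. The genes compared reach down to a mean of 1 CPM, while ETFDH, the lowest of the 9, averaged 20.1 CPM in VENsens lines. Counting error adds more to the SD at low counts, and the genes were not matched for level. ACADVL, the very-long-chain dehydrogenase, had one of the smallest SDs in VENsens lines at 0.03, with 98.7% of genes above it, and 0.13 in VENins lines.

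**Figure D4:**
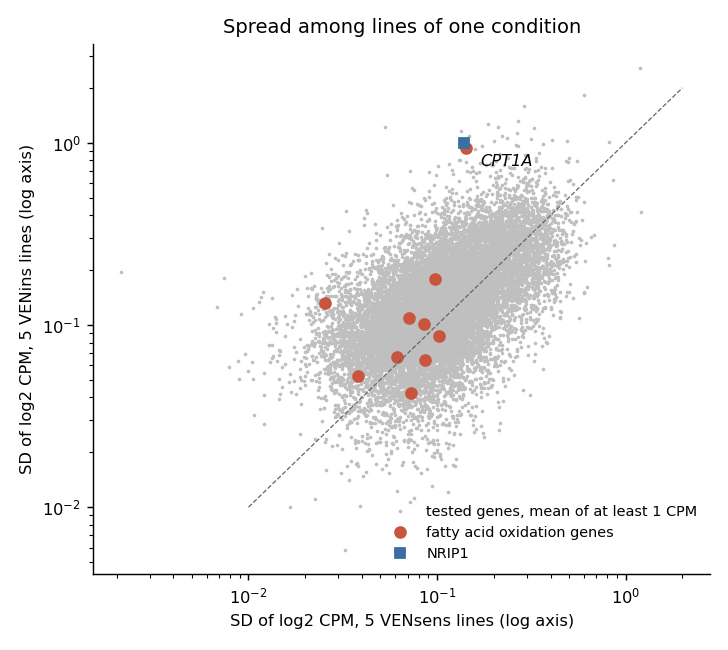
SD of log2 CPM over the 5 VENins lines against that over the 5 VENsens lines, both on log axes, with each tested gene of at least 1 CPM as a grey point, the 10 enzymes as circles with CPT1A named, and NRIP1 as a square. CPT1A lies at the upper edge of the cloud at 0.94 in VENins and 0.14 in VENsens lines, and the other enzymes lie within it.

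The plot of SDs sets CPT1A apart from the other enzymes, whose points fall in the body of the cloud. Genes with a pattern like that of CPT1A were sought after its values had been seen, by Pearson correlation of log2 CPM over the 10 libraries among 11137 protein-coding genes, as a description. The closest were SOCS2, a suppressor of cytokine signaling (r = 0.986), HHEX, a homeobox factor of early blood cells (r = 0.980), and CDH11, a cadherin (r = 0.979). These genes, like CPT1A, were highest in VENins line 4: SOCS2 stood at 198 CPM in VENins line 4 and at 32.3, 37.6, 92.0 and 44.1 CPM in VENins lines 1, 2, 3 and 5. The B-lineage markers were read for the same line after the values were seen. Of the 15 genes, VENins line 4 was the highest VENins line for DNTT and PAX5. DNTT stood at 27.3 CPM there, against 1.08, 1.43, 3.38 and 1.96 CPM in VENins lines 1, 2, 3 and 5. PAX5 stood at 676 CPM there, below every VENsens line (713 to 827 CPM). It was called lower in VENins lines, with an adjusted p of 0.0272 in edgeR's test. VENins line 4 was the lowest VENins line for CD79A at 496 CPM, CD79B at 138 CPM, VPREB1 at 548 CPM and IGLL1 at 705 CPM, so these markers had no common direction in it. Of the 6 myeloid genes CD33 followed the pattern of CPT1A, at 1.75, 2.03, 2.68, 2.04 and 2.35 CPM in VENsens lines 1 to 5 and at 1.27, 0.613, 1.59, 2.83 and 1.74 CPM in VENins lines 1 to 5. VENins line 4 was above and the other VENins lines were below every VENsens line, from 15 to 76 counts per library. MPO was also highest in VENins line 4, at 0.432 CPM, and CD14, LYZ, CSF1R and ELANE were not. The myeloid list summed to 11.9, 9.45, 13.6, 12.6 and 12.8 CPM in VENsens lines 1 to 5 and to 12.3, 10.7, 12.2, 14.5 and 14.3 CPM in VENins lines 1 to 5. The part of these markers and of line 4's other differences in the CPT1A values was not tested.

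For CPT2, the member with the smallest p, the most similar patterns among the same 11137 genes were those of CAMKK2, a kinase that activates AMPK (r = 0.974), TCEANC2 (r = 0.961) and CDK5R1, an activator of the kinase CDK5 (r = 0.952). Their log2 fold changes were -0.09 for CAMKK2, -0.20 for TCEANC2 and -0.24 for CDK5R1, with adjusted p-values of 0.401, 0.198 and 0.194 in edgeR's test. With length and GC trends taken out they were smaller for CAMKK2, at -0.0072, and for TCEANC2, at -0.10. CPT1A and CPT2 had an r of 0.649 with each other over the 10 libraries. The genes beside CPT1A on chromosome 11 were looked up after its values were seen. Of its 6 nearest tested protein-coding neighbours, 5 were lower and 1 was higher in VENins lines, from -0.35 for TPCN2 to 0.14 for MRPL21, and edgeR's test called 0 of 6, with 3 at an unadjusted p under 0.05 (16.2% of all tested genes), DESeq2 with the block called 0 and DESeq2 without it 0. Of the 6 neighbours of CPT2 on chromosome 1, 3 were lower and 3 higher, and edgeR's test called 0, with 2 at an unadjusted p under 0.05. DESeq2 with the block called 0 of them, and DESeq2 without it called 2, beside 5.51% of the genes it gave an adjusted p. Of the neighbours of CPT1A, LRP5 and TPCN2 were, like it, highest among the VENins lines in line 4, and PPP6R3, TESMIN, MRPL21 and IGHMBP2 were not. LRP5 stood at 50.6 CPM in VENins line 4 and at 33.2, 33.8, 35.6 and 43.9 CPM in VENins lines 1, 2, 3 and 5, against 41.7 to 48.1 CPM in VENsens lines.

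**Figure D5:**
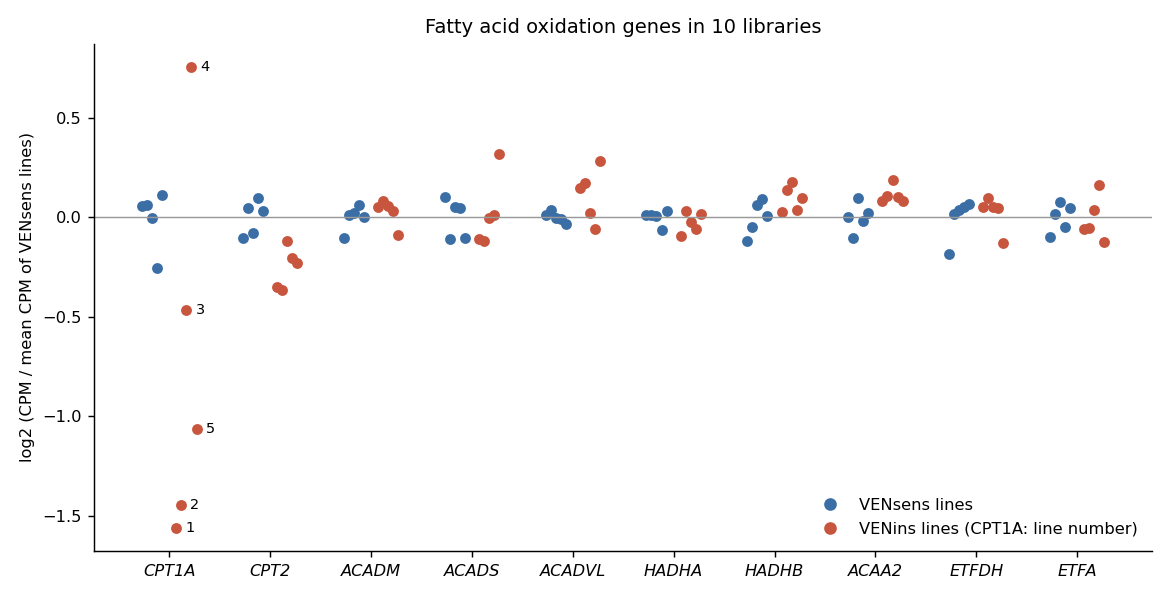
Log2 of the CPM of each enzyme over its mean CPM in VENsens lines (vertical axis), with 1 point per library, VENsens and VENins side by side and the VENins points of CPT1A numbered by line. The groups are separate for CPT2 and overlap for the others, and the CPT1A points of VENins lines reach farthest in both directions.

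The acyl-CoA dehydrogenases carry out the first dehydrogenation of each round, ACADVL on very long chains, ACADM on medium and ACADS on short chains. ACADVL (ENSG00000072778, chromosome 17) stood at 126, 128, 125, 124 and 122 CPM in VENsens lines 1 to 5 and at 139, 141, 127, 120 and 152 CPM in VENins lines 1 to 5. VENins lines 1, 2 and 5 were above every VENsens line, line 4 was below every one, and line 3 lay among them. The log2 fold change was 0.11 (SE 0.06), higher in 4 of 5 line pairs, with an adjusted p of 0.356 in edgeR's test, and it was 0.06 without line pair 5. ACADM (ENSG00000117054, chromosome 1) stood at 127, 137, 138, 142 and 136 CPM in VENsens lines and at 141, 144, 142, 140 and 128 CPM in VENins lines 1 to 5. Its groups covered nearly the same range, and its log2 fold change of 0.03 (SE 0.05) had an adjusted p of 0.853 in edgeR's test. ACADS (ENSG00000122971, chromosome 12) stood at 36.5, 31.5, 35.3, 35.2 and 31.6 CPM in VENsens lines and at 31.5, 31.3, 34.0, 34.3 and 42.5 CPM in VENins lines 1 to 5. VENins line 5 was the highest of all 10 libraries and the others lay within or just under the VENsens range. The log2 fold change was 0.02 (SE 0.08), with an adjusted p of 0.923 in edgeR's test. The sign was not the same in all fits, with -0.08 for ACADS without line pair 5, -0.0036 for ACADS with length and GC trends taken out and -0.0035 for ACADM without line pair 1.

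HADHA and HADHB encode the subunits of the mitochondrial trifunctional protein, HADHA with the hydratase and hydroxyacyl-CoA dehydrogenase activities and HADHB with the thiolase for long chains. The genes lie head to head on chromosome 2, with RefSeq starts 307 bases apart. The 250 bases before the RefSeq start of HADHA are shown because most of them also lie in the window of HADHB. The window is chr2:26244633-26244882 on the minus strand, RefSeq GRCh38.p14, and capitals mark the 194 bases that lie, as the reverse complement, in the window of HADHB at chr2:26244689-26244938 on the plus strand.
HADHA: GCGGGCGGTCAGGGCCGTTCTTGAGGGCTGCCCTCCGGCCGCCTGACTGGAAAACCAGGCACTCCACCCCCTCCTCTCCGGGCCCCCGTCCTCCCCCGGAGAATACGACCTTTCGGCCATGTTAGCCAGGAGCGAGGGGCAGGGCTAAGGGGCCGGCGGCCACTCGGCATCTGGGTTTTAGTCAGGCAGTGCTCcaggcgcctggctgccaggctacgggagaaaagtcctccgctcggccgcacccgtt
HADHA (ENSG00000084754) stood at 229, 229, 228, 217 and 232 CPM in VENsens lines 1 to 5 and at 213, 232, 223, 218 and 229 CPM in VENins lines 1 to 5. The groups overlapped over most of their range, and the log2 fold change was -0.03 (SE 0.05), with an adjusted p of 0.850 in edgeR's test, and it was -0.0051 without line pair 1 and -0.04 with pseudogene counts added. HADHB (ENSG00000138029) stood at 62.8, 65.9, 71.3, 72.8 and 68.6 CPM in VENsens lines and at 69.5, 75.03, 77.2, 70.1 and 72.9 CPM in VENins lines 1 to 5. VENins lines 2, 3 and 5 were above every VENsens line, and the log2 fold change was 0.10 (SE 0.06), higher in 4 of 5 line pairs, with an adjusted p of 0.423 in edgeR's test.

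The balance of the subunits was read as the log2 ratio of HADHA to HADHB counts within a library, which needs no normalization. It was 1.87, 1.79, 1.68, 1.58 and 1.76 in VENsens lines 1 to 5 and 1.61, 1.63, 1.53, 1.63 and 1.65 in VENins lines 1 to 5. VENins lines lay in the lower part of the VENsens range or just under it. The means were 1.74 ± 0.11 and 1.61 ± 0.05 (SD, n = 5), a difference of -0.12, with p = 0.0714 in a two-sided exact permutation test and 0.143 after Benjamini-Hochberg adjustment over 2 ratios. Without line pair 4 the difference was -0.17, with p = 0.0286 in the exact permutation test and 0.0571 after adjustment, and without line pair 1 it was -0.09, with p = 0.200. The smallest p that regrouping allows is 0.00794 for 5 and 5 libraries and 0.0286 for 4 and 4. Per kilobase of exon, HADHA stood 2.37-fold above HADHB in VENsens lines, and 3.25-fold with the exons of all transcripts as length. Reads of processed pseudogenes of HADHA were counted separately, with 3617 counts on HADHAP1 and 9925 on HADHAP2 over all libraries against 54036 on HADHA.

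ACAA2 (ENSG00000167315, chromosome 18) encodes the thiolase that cleaves medium-chain 3-ketoacyl-CoA at the end of each round. It stood at 109, 101, 117, 107 and 111 CPM in VENsens lines 1 to 5 and at 116, 117, 124, 117 and 115 CPM in VENins lines 1 to 5. VENins lines 2, 3 and 4 were above every VENsens line, and lines 1 and 5 lay just under VENsens line 3, the highest of its group. VENsens lines averaged 109 ± 5.47 CPM and VENins lines 118 ± 3.52 CPM (SD, n = 5). The log2 fold change was 0.11 (SE 0.05, 95% confidence interval 0.0021 to 0.22), higher in 5 of 5 line pairs, with an adjusted p of 0.299 in edgeR's test.

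ETFA and ETFB encode the subunits of the electron transfer flavoprotein, and ETFDH encodes the inner-membrane enzyme that hands its electrons to ubiquinone. ETFA (ENSG00000140374, chromosome 15) stood at 102, 110, 115, 106 and 113 CPM in VENsens lines 1 to 5 and at 105, 105, 112, 122 and 100 CPM in VENins lines 1 to 5. Both the highest and the lowest value were from VENins lines, and the log2 fold change was -0.0059 (SE 0.06), with an adjusted p of 0.979 in edgeR's test. ETFDH (ENSG00000171503, chromosome 4) stood at 17.7, 20.3, 20.6, 20.8 and 21.0 CPM in VENsens lines and at 20.8, 21.5, 20.8, 20.7 and 18.4 CPM in VENins lines 1 to 5. VENsens line 1 and VENins line 5 were low and the other 8 libraries lay close together, with a log2 fold change of 0.03 (SE 0.08) at an adjusted p of 0.904 in edgeR's test. The sign differed for ETFDH without line pair 1 (-0.02) and for ETFA without line pairs 2 (0.0095), 3 (0.0024) and 5 (0.04).

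ETFB, the partner of ETFA, was read as a gene of the pathway outside the 10. It stood at 19.9, 17.6, 19.2, 19.7 and 16.6 CPM in VENsens lines 1 to 5 and at 18.8, 21.5, 19.6, 19.4 and 22.1 CPM in VENins lines 1 to 5, with a log2 fold change of 0.13 (SE 0.08) at an adjusted p of 0.478 in edgeR's test, and it was 0.06 without line pair 5. The log2 ratio of ETFA to ETFB counts was 2.36, 2.65, 2.59, 2.42 and 2.76 in VENsens lines and 2.48, 2.29, 2.51, 2.65 and 2.18 in VENins lines 1 to 5. The groups overlapped widely. The means were 2.56 ± 0.16 and 2.42 ± 0.19 (SD, n = 5), a difference of -0.13, with p = 0.262 in a two-sided exact permutation test and 0.262 after adjustment over 2 ratios. The difference was -0.02 without line pair 5, with p = 0.829 in the exact permutation test, and -0.22 without line pair 4, with p = 0.114. Per kilobase of exon, ETFA stood 9.51-fold above ETFB in VENsens lines, and 7.63-fold with the exons of all transcripts as length.

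Other genes around the pathway were read from lists of 126 symbols, of which 125 were found and 107 tested. None was called in edgeR's test with the block, and 14 had an unadjusted p under 0.05 (7 higher, 7 lower), beside 16.2% of all tested genes. DESeq2 with the block called 1, SLC27A2, beside 1.89% of the genes it gave an adjusted p. DESeq2 without the block called 2, SLC27A2 and SLC27A4, beside 5.51% of the genes it gave an adjusted p. Of the 107, 54 were higher and 53 lower in VENins lines, the groups did not overlap for 4, beside 4.66% of all tested genes, and the median log2 fold change was 0.0034, against 0.0035 for all tested genes. Over the 10 lists the share of genes higher in VENins lines ran from 1 of 9, for malonyl-CoA and AMPK control, to 6 of 7, for carnitine, beside 51.1% of all tested genes, and differences between lists were not tested. The symbol ACACA was not matched, and 18 genes were not tested: CRAT, the mitochondrial carnitine acetyltransferase, reached at most 0.775 CPM, the others, such as ACADL and PDK4, reached at most 0.173 CPM, and FABP4, DMGDH, EHHADH, RXRB, TXNIP and LPL were listed at 0. The annotation used for counting is not known here, so a 0 does not show that a gene was not expressed.

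Genes of fatty acid uptake and activation supply the acyl-CoA on which CPT1A acts. Of 17 tested, 3 with higher and 2 with lower values had an unadjusted p under 0.05, and the median log2 fold change was 0.03. SLC27A2, a fatty acid transporter with acyl-CoA synthetase activity, stood at 20.8, 20.0, 20.9, 20.7 and 22.7 CPM in VENsens lines 1 to 5 and at 13.5, 15.2, 16.1, 21.5 and 15.6 CPM in VENins lines 1 to 5. Like CPT1A it was below every VENsens line in VENins lines 1, 2, 3 and 5 and not in line 4. Its log2 fold change was -0.37 (SE 0.09), with an adjusted p of 0.0914 in edgeR's test, and without line pair 4 it was -0.48 with an adjusted p of 0.00569. Over its alternatives the adjusted p lay between 0.00226 and 0.484, with 0.0418 in DESeq2 with the block. SLC27A4, of the same family, had higher values in each VENins line than in any VENsens line, with means of 7.03 ± 0.778 and 8.93 ± 1.08 CPM (SD, n = 5). Its log2 fold change was 0.34 (SE 0.09), with an adjusted p of 0.0991 in edgeR's test and of 0.0403 in DESeq2 without the block, within 0.0403 to 0.486 over its alternatives. ACSL6, a long-chain acyl-CoA synthetase, had a log2 fold change of 0.55 (SE 0.18) at 1.23 ± 0.303 and 1.79 ± 0.264 CPM, with an adjusted p of 0.158 in edgeR's test.

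The carnitine list beside CPT1A and CPT2 had 7 tested genes, none with an unadjusted p under 0.05 in edgeR's test and none called by DESeq2, and a median log2 fold change of 0.15. CROT, the peroxisomal carnitine octanoyltransferase, had a log2 fold change of 0.18, and SLC22A5, the carnitine transporter of the plasma membrane, one of 0.23 at about 1 CPM. Among 14 other tested genes of mitochondrial beta-oxidation, 3 with higher and 1 with lower values had an unadjusted p under 0.05, with a median of 0.05. ECI2, an isomerase for unsaturated acyl-CoA, had separate groups with VENsens at 34.3 ± 1.01 CPM and VENins at 38.4 ± 1.79 CPM (SD, n = 5) and a log2 fold change of 0.16 (SE 0.06), with an adjusted p of 0.207 in edgeR's test. HSD17B10, a short-chain hydroxyacyl-CoA dehydrogenase, had a log2 fold change of 0.20 and ACAD10, of the acyl-CoA dehydrogenase family, one of -0.21, with adjusted p-values of 0.229 and 0.177 in edgeR's test. Without line pair 2 the value of HSD17B10 was 0.12. Of 10 tested genes of the electron transfer flavoprotein and its other donors, none had an unadjusted p under 0.05 in edgeR's test and none was called by DESeq2, with a median of -0.11. ACADSB of isoleucine breakdown had a log2 fold change of -0.15 and IVD of leucine breakdown one of -0.11, which was -0.06 with length and GC trends taken out and -0.07 without line pair 1. For ACADSB it was -0.23 without line pair 1 and -0.10 without line pair 5.

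Peroxisomes shorten the chains that mitochondria do not take up. Of 16 tested peroxisomal genes, 1 had an unadjusted p under 0.05, AMACR, a racemase for branched acyl-CoA, with a log2 fold change of -0.46 (SE 0.18) at 2.196 ± 0.328 and 1.60 ± 0.452 CPM and an adjusted p of 0.241 in edgeR's test, and -0.27 without line pair 1. ACOT8, a thioesterase, had a log2 fold change of 0.17 and HSD17B4, the bifunctional enzyme, one of 0.11, and the median of the list was 0.02. Malonyl-CoA, the inhibitor of CPT1A, is made by acetyl-CoA carboxylases that AMPK restrains. Of 9 tested genes of this control none had an unadjusted p under 0.05 in edgeR's test and none was called by DESeq2, with a median of -0.08. ACACB, the carboxylase at the mitochondrial surface, had a log2 fold change of -0.19, PRKAB2, an AMPK subunit, one of -0.11, and CAMKK2 had separate groups with -0.09 and means of 186 ± 3.89 and 175 ± 4.13 CPM. With length and GC trends taken out the values were -0.0072 for CAMKK2 and -0.08 for ACACB. ACACB was at -0.12 without line pair 1 and at -0.29 without line pair 5, and PRKAB2 at -0.03 without line pair 2.

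Among 10 tested transcriptional regulators of the pathway, 1 with higher and 2 with lower values had an unadjusted p under 0.05, and the median log2 fold change was -0.05. NRIP1, a corepressor of nuclear receptors, stood at 74.99, 88.3, 84.0, 78.2 and 95.7 CPM in VENsens lines 1 to 5 and at 25.4, 23.4, 54.0, 119 and 27.1 CPM in VENins lines 1 to 5. As with CPT1A, VENins lines 1, 2, 3 and 5 were below and VENins line 4 above every VENsens line. The r of NRIP1 with CPT1A was 0.974 over the 10 libraries, rank 9 among the genes compared. Its log2 fold change was -1.05 (SE 0.26), with an adjusted p of 0.0967 in edgeR's test, and without line pair 4 it was -1.47 with an adjusted p of 2.25e-05. Over its alternatives the adjusted p reached from 2.89e-44, in the edgeR fit without a filter on low counts and without a gene's own spread, to 0.561. PPARA, the nuclear receptor known to drive genes of this pathway, had a log2 fold change of -0.22 (SE 0.08) at an adjusted p of 0.188 in edgeR's test, and it was -0.13 with length and GC trends taken out and -0.13 without line pair 2. PPARGC1A, a coactivator, lay under 1 CPM with a log2 fold change of 0.67 (SE 0.30) at an adjusted p of 0.287 in edgeR's test.

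Of 12 genes known to respond to PPAR receptors, 9 were tested, 3 of them members (CPT1A, ACADVL and HADHA), 2 had an unadjusted p under 0.05, both with lower values, and the median log2 fold change was -0.05. They were CPT1A and SLC25A42, a mitochondrial carrier of CoA, with a log2 fold change of -0.16 at an adjusted p of 0.222 in edgeR's test. Of 9 tested genes of propionate and ketone bodies none had an unadjusted p under 0.05 in edgeR's test and none was called by DESeq2, with a median of 0.02 and log2 fold changes of -0.13 for MUT and -0.11 for AACS. Of 9 tested genes of lipolysis and lipid droplets the same counts were 0 and 0, with a median of -0.01 and values of -0.12 for LIPA, the lysosomal lipase, 0.05 for DGAT1 and -0.05 for PNPLA2, the triglyceride lipase. Without line pair 5 these were -0.06 for LIPA, -0.0099 for DGAT1 and -0.15 for PNPLA2, and PNPLA2 was at 0.01 without line pair 1.

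RefSeq promoter windows were found for 9 of the 10 enzymes, 10 windows in all with 2 of ACADVL, and ETFDH had no entry. For these counts each window also takes in bases after the start. GGGCGG was found on either strand in 7 of 10 windows, against 42.6% of all windows. The 10 windows are not separate, since the match in the window of HADHA lies in the bases it shares with HADHB and is counted in both, and HADHB has 1 more of its own. CCGGAAG was found in 1, that of CPT2, against 8.52%. CCAAT was found in 1, that of ETFA, against 32.0%. CACGTG was found in 0 against 6.35%, AGGTCA in 0 against 12.1%, and AGGTCA repeated after 1 base, the arrangement known for PPAR receptors, in 0 against 0.0171%, which says that these letters are not in these windows.

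Some exons are shared with neighbouring genes, and reads on shared bases may have been counted for neither. Over the exons of all GENCODE 29 transcripts, 10.452 kilobases for CPT2 and 4.493 for ETFDH, the antisense gene AL606760.2 covers 11.0% of the exon bases of CPT2 and PPID covers 10.9% of those of ETFDH. AC090227.1, on the same strand, covers 7.59% of those of ACAA2. AL606760.2 and AC090227.1 were listed at 0 counts over all libraries. Overlaps of ACADM, of ACADVL and of CPT2 and ETFDH with other genes cover at most 3.28% each. The library kit does not mark the strand. The part of such reads in the values of these enzymes was not tested.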

How the data were processed

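RNA-Seq counts of 10 RS4;11 lines, 5 VENsens and 5 VENins with 1 library each, were used. The authors deposited a whole-number count of single-end reads for each of 63677 Ensembl gene identifiers, without normalization. The submitters' processing notes name bcl2fastq 2.20.0.422, Bowtie2 2.3.5.1, SAMtools 1.9 and HTSeq 0.9.1 with the builds hg19 and GRCh37. The strand setting and the annotation release are not given in the sources used here. Reads per library ranged from 38491516 to 52960365. Names, exon lengths and GC content came from GENCODE 29, built on GRCh38, so chromosomes but no gene coordinates are given. It named 52526 identifiers, and 0.907% of counts lay on unnamed ones.

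The software was R 4.3.3, DESeq2 1.42.0, edgeR 4.0.16 and limma 3.58.1. Computed here were TMM factors, CPM and log2 CPM (prior count 2), after filterByExpr (minimum count 10, minimum total 15). Groups were compared with edgeR's quasi-likelihood F test with line number and condition as terms, with Benjamini-Hochberg adjustment across every tested gene, and 0.05 as the threshold. Log2 fold changes are VENins over VENsens, and SEs were derived from the F statistic. Subunit ratios were tested by exact permutation (two-sided). Tables and plots used Python 3.11.15, numpy 2.4.6, pandas 2.3.3, scipy 1.17.1 and matplotlib 3.10.9. The edgeR steps were tested on simulated data.

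Genes named are the 10 enzymes, ETFB, CPT1B, CPT1C and SLC25A20, from each pathway list those called and the 3 with the smallest p, and the 3 genes most correlated with the member of smallest p. A few genes of the lists are counted but not reported here by name. The pathway lists were uptake and activation, carnitine, other mitochondrial beta-oxidation, electron transfer flavoprotein donors, peroxisomal oxidation, malonyl-CoA and AMPK, regulators, PPAR-responsive genes, propionate and ketone bodies, and lipolysis, and the marker lists were B lineage, T cell, myeloid, erythroid, and liver and fat. The members and lists were chosen with earlier results of these data known. Alternatives tried were no block, DESeq2 with and without the block, scaling by RLE or by library size, a minimum of 10 counts in each library, no low-count filter, length and GC trends taken out (splines with 4 degrees of freedom), pseudogene counts added, and leaving out each line pair. Exon lengths from all GENCODE 29 transcripts in place of the basic set were added after the data were seen.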

Additional observations from a re-analysis of the deposited data

Results flagged for a closer look

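Within each group of 5 libraries, a value was singled out when its gap to the nearest other value, divided by the range of the group, exceeded Dixon's critical value of 0.71. Chance singles out about 1 in 20 groups, or 4.3 of the 86 groups read, and 11 were found, 6 of them among the 20 groups of the 10 enzymes. Of the 11, 4 were in VENins line 5, the library that stood apart from all others of its group, and 2 in VENsens line 2.

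CPT1A in VENins line 4 was high at 17.1 CPM, with the other VENins lines between 3.43 and 7.32 CPM. ACADS in VENins line 5 was high at 42.5 CPM, with the others between 31.3 and 34.3 CPM. HADHA in VENsens line 4 was low at 217 CPM, with the others between 228 and 232 CPM. ACAA2 in VENins line 3 was high at 124 CPM, with the others between 115 and 117 CPM. ETFDH in VENsens line 1 was low at 17.7 CPM, with the others between 20.3 and 21.0 CPM, and in VENins line 5 it was low at 18.4 CPM, with the others between 20.7 and 21.5 CPM.

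Outside the 10 enzymes, ECI2 in VENsens line 4 was low at 32.5 CPM, HSD17B10 in VENsens line 2 was low at 38.8 CPM, and PRKAB2 in VENsens line 2 was high at 25.4 CPM. DGAT1 at 49.9 CPM and PNPLA2 at 135 CPM were high in VENins line 5.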

How the results depend on the processing

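Of the 10 enzymes, edgeR called 0 with the line-number block and 0 with no replicate block, RLE factors, library size alone or at least 10 counts in every library, and DESeq2 with the block called 0. The count was 1 in DESeq2 without the block, 2 without a filter on low counts, 1 with length and GC trends taken out, and 0 to 1 when a line pair was left out. Pathway genes called numbered 0 with the block, 1 in DESeq2 with it and 2 without it, 2 without a filter on low counts, and 0 to 2 when a line pair was left out. All genes called numbered 33 with the block, 149 without it, 219 in DESeq2 with and 726 without it, 664 without a filter on low counts, 167 with length and GC trends taken out, and 6 to 331 when a line pair was left out. Same-numbered lines did not deviate together from their group means, with r of -0.15, 0.05, -0.01, -0.0040 and -0.11 for pairs 1 to 5, so the data do not show the pairing. The median log2 fold change of the enzymes stayed between -0.0043 and 0.05 and both subunit ratios kept their sign, from -0.17 to -0.089 for HADHA to HADHB and from -0.22 to -0.021 for ETFA to ETFB when a line pair was left out. Signs were reversed for ACADS with length and GC trends taken out (-0.0036) and, when a line pair was left out, for genes whose values ran from -0.0035 to 0.057 (ACADM), -0.078 to 0.081 (ACADS), -0.024 to 0.081 (ETFDH), -0.060 to 0.035 (ETFA), -0.14 to 0.031 (CPT1B), -0.056 to 0.43 (CPT1C), -0.0099 to 0.077 (DGAT1) and -0.15 to 0.012 (PNPLA2). The cause of these moves was not tested, other than that leaving out a pair leaves fewer libraries. CPT1A, CPT2, ACADVL, HADHA, HADHB and ACAA2 kept their sign under every alternative. With the exons of all transcripts as length, added after the data were seen, the enzymes' levels per kilobase were lower, and 3 pairs of neighbours in the VENsens order changed places.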
